A study of Mus musculus with 12 samples.

Results

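The subject is the mRNA of 32 genes of synaptic vesicles and of the machinery that releases them, measured in spinal motor neurons of mice that carry the Q331K change in TDP-43. The genes were chosen by name, as rows of the deposited count table, and each of the 32 was found once among 25965 entries. They were chosen with earlier results of these data known, so shares set against all genes describe the list and do not test it. The tissue was lower motor neurons of the lumbar cord, cut out by laser from C57BL/6 mice aged 5 months. Homozygotes had the genotype Q331K/Q331K, heterozygotes Q331K/+ and wild type mice +/+, with 4 libraries for each genotype and 12 libraries in all. TDP-43, the RNA-binding protein encoded by Tardbp, carries this amino acid change in some people with amyotrophic lateral sclerosis. The knock-in places the change in the endogenous gene, so no transgene promoter drives it. Nothing in the labels ties a library to a single animal, and p-values therefore measure the spread between libraries.

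A synaptic vesicle fuses with the membrane of the nerve ending when SNARE proteins on the vesicle and on the membrane zip together, and calcium bound to synaptotagmin starts that step. Scaffold and priming proteins of the active zone hold vesicles ready, complexins clamp and promote fusion, and NSF with its SNAP adaptors takes used SNARE complexes apart. Dynamin, amphiphysin and synaptojanin retrieve vesicle membrane by endocytosis. In a lower motor neuron the cell body makes these mRNAs, while release takes place at the distant neuromuscular junction, so a cut cell body shows the supply of transcripts and not the terminal itself.

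Upstream sequence was available from RefSeq for 27 of the 32 members, matched by symbol on build GRCm38.p6. The GC box, written GGGCGG and read on both strands, is the short element bound by Sp1. The table holds 35 windows for these 27 genes, each the 250 bases before an annotated transcript start, and some of those starts lie far from the start of the gene's entry in the count table or inside it. The GC box was present in 20 of the 35 windows (57.1%), against 32.7% of 32851 windows of the same length across the table. The E box CACGTG was present in 4 windows (11.4%, against 6.02%), the TATA box TATAAA in 2, both of Sv2b (5.71%, against 12.4%), and the cAMP response element TGACGTCA in 1, of Syn1 (2.86%, against 1.55%). A match is a description of the letters and was not tested as a binding site. The windows of Nsf, Unc13a, Syngr1 and Sncb are printed. These genes are among the 12 members with the smallest p-values between homozygotes and wild type, and their windows overlap no annotated exon. Each runs 5′ to 3′ on the strand of its gene, with capitals at the E box of Nsf and at the GC boxes of the other three. The positions are chr11:103954057-103954306 on the minus strand for Nsf, chr8:71671758-71672007 on the minus strand for Unc13a, chr15:80091084-80091333 on the plus strand for Syngr1 and chr13:54766596-54766845 on the minus strand for Sncb.
Nsf: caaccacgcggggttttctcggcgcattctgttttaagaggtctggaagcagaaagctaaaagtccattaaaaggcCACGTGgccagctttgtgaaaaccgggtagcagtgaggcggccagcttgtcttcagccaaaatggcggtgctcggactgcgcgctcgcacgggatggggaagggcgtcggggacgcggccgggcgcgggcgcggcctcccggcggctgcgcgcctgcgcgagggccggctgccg
Unc13a: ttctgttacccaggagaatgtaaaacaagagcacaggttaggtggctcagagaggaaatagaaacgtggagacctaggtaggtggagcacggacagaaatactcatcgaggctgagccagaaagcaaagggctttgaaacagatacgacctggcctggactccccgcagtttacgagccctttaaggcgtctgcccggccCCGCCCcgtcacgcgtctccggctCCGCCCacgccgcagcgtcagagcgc
Syngr1: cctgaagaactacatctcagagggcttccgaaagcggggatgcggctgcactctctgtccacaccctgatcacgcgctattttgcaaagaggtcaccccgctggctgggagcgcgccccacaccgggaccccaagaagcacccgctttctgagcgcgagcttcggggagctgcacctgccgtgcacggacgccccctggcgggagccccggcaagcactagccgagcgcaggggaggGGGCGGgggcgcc
Sncb: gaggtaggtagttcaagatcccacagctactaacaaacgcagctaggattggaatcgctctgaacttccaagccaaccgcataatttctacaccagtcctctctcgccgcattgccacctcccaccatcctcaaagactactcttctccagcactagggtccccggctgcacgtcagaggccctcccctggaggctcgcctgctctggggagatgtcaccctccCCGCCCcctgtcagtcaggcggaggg
Nsf carries no GC box in this window and Unc13a carries it at a pair of places. The windows are rich in G and C, from 58% in Unc13a to 68.4% in Syngr1.

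Libraries held 60886825 to 83504446 counts, and values are given as CPM, the read count of a gene scaled to a common library total and corrected for library composition. Of 16338 genes tested with edgeR, 1 passed an adjusted p of 0.05 between homozygotes and wild type and none in the other tests. Tardbp averaged 75.6 ± 2.17 CPM in homozygotes, 73.0 ± 5.48 CPM in heterozygotes and 73.7 ± 7.68 CPM in wild type (SD, n = 4 each), which does not check the genotype of a knock-in that changes an amino acid. Homozygote replicate 1 and heterozygote replicate 1 stood apart from the other 10 libraries. The 10 motor neuron markers in the table summed to 12821 CPM in homozygote replicate 1 and 12452 CPM in heterozygote replicate 1, against 4665 to 8609 CPM in the other 10, and 8 of the 10 were above all others in both. The 10 inhibitory interneuron markers summed to 447 CPM in homozygote replicate 1 and 352 CPM in heterozygote replicate 1, against 769.99 to 1411 CPM. In both, 8 of 10 were below all others. Most of these 2 sums was Calb2, at 428 CPM in homozygote replicate 1 and 330 CPM in heterozygote replicate 1, against 560 to 1032 CPM. Slc6a5 was at 0 CPM in homozygote replicate 1 and 1.35 CPM in heterozygote replicate 1, against 123 to 293 CPM. The 6 excitatory interneuron markers summed to 4.52 CPM and 0.563 CPM in the same libraries, against 175 to 330.6 CPM. Markers at 0 included Slc6a5, Gad1, Gad2, Npy, Sst, Tlx3, Lmx1b, Lbx1 and Tac1 in homozygote replicate 1. In heterozygote replicate 1 they included Gad2, Sst, Tlx3, Lmx1b, Lbx1 and Tac1. Of the markers named, Npy, Tlx3, Lmx1b and Tac1 were also at 0 in some of the other 10 libraries. By genotype, the inhibitory sums ran from 447 to 1359 CPM in homozygotes, 352 to 1207 CPM in heterozygotes and 911 to 1411 CPM in wild type. Motor neuron sums ran from 6337 to 12821 CPM in homozygotes, 5238 to 12452 CPM in heterozygotes and 4665 to 8609 CPM in wild type. Over all 12 libraries astrocyte markers summed to 1538 to 2122 CPM and oligodendrocyte markers to 934 to 2816 CPM. In such bulk material, fewer cells of a type and less RNA per cell cannot be told apart. Differences from wild type are therefore plotted with and without these 2 libraries for all 32 genes. The text gives both values for the 12 members with the smallest p-values in each comparison with wild type, and for other printed differences where leaving these 2 libraries out turned the direction or moved the value by over 1.5 times. Marker sums also varied among the other 10, from 4665 to 8609 CPM for motor neuron and 769.99 to 1411 CPM for inhibitory interneuron markers. The part of cell content was not tested, either in the results with all 12 or in those without these 2 libraries.

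The 32 genes span a wide range of abundance. Per kilobase of exon, Snap25, the SNARE of the nerve-ending membrane, was the highest in wild type, with 1061 ± 95.04 CPM per kb in homozygotes, 1076 ± 132 in heterozygotes and 1282 ± 166 in wild type (SD, n = 4 each). Cplx1, a complexin, followed with 817 ± 105 in homozygotes, 838 ± 119 in heterozygotes and 905 ± 84.7 in wild type. Sncg, gamma-synuclein, had 1280.4 ± 382 in homozygotes, 1264 ± 290.2 in heterozygotes and 904 ± 199 in wild type. Cplx1 and Sncg did not differ beyond their spread in wild type, and in both mutant genotypes Sncg had the highest mean, within the spread of Snap25. Next in wild type came Rab3a, the vesicle GTPase, at 689 ± 69.6 CPM per kb, Syt11 at 266 ± 34.9, the vesicle protein synaptophysin (Syp) at 256 ± 4.54 and Napa, an NSF adaptor, at 216 ± 13.2. Syt11 and Syp overlapped within their spread. In wild type 11 members exceeded 100 CPM per kb and 9 lay below 10.

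Within several families 1 member was far more abundant than its relative. Among the synaptotagmins, Syt2, the fast calcium sensor of spinal neurons, had 60.2 ± 2.04 CPM per kb in wild type, and Syt1, the sensor of most forebrain synapses, had 3.54 ± 0.611. Vamp1, the vesicle SNARE of the neuromuscular junction, had 185 ± 6.34 in wild type and Vamp2, its forebrain counterpart, 24.5 ± 7.63. Cplx2 was at 2.07 ± 0.977, and Stx1a, a membrane SNARE, at 0.784 ± 0.711. The priming protein Unc13a had 4.01 ± 0.642 and its relative Unc13b 0.0266 ± 0.0354 CPM per kb. Rims1, Sv2c, Pclo and Bsn completed the low end, at 9.33 ± 0.728, 5.93 ± 1.19, 4.80 ± 0.311 and 2.37 ± 0.496 in wild type. The middle held Vamp1, Nsf (161 ± 3.35), Dnm1 (155 ± 15.4), Syngr3 (123 ± 21.2), Sncb (93.6 ± 23.00), Syt4 (84.2 ± 19.6), Syn1 (81.6 ± 5.99), Napb (76.1 ± 6.29) and Bin1 (75.9 ± 0.680). Below them stood Syngr1 (46.2 ± 4.99), Sv2b (31.5 ± 5.45), Amph (30.3 ± 1.92), Syn2 (25.98 ± 2.67) and Synj1 (23.1 ± 1.45). Counts per library ran from 437990 to 795058 for Snap25 and from 0 to 369 for Stx1a, so the rare members are known far less precisely.

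**Figure D1:**
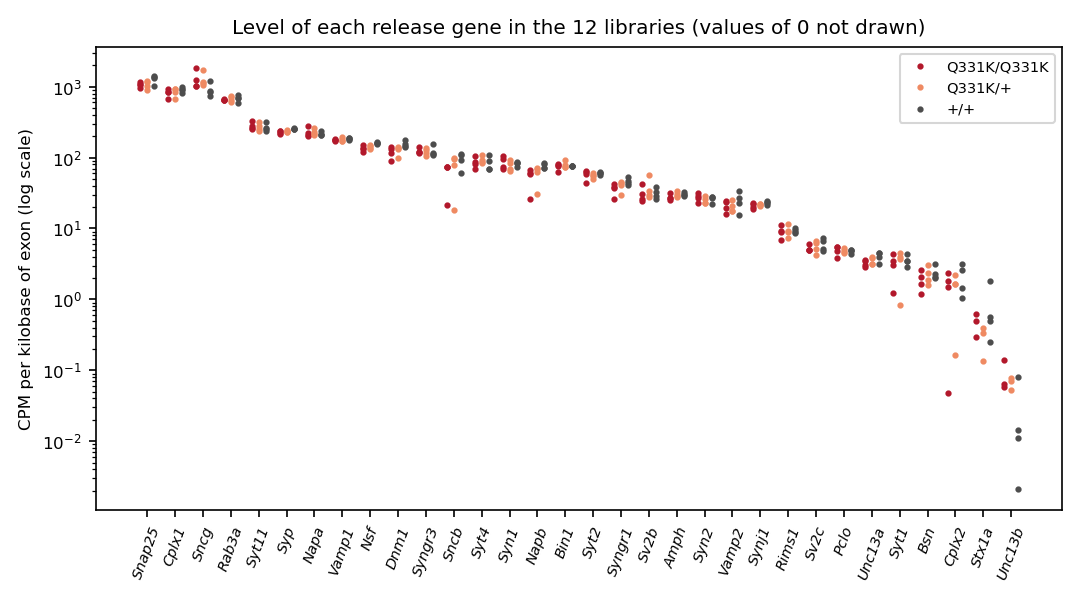
Level of each of the 32 genes in CPM per kilobase of exon on a log axis, with 1 point per library and genotypes side by side; libraries at 0 are not drawn. Ordered by wild type level, Snap25 comes first and Unc13b last, and the genotypes overlap for all genes but Nsf, Syp and, in homozygotes, Napb.

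Between homozygotes and wild type, the release genes leaned lower in homozygotes by a small amount, and none passed the test. Of the 32, 23 were lower in homozygotes, and the median log2 difference was -0.14, against 50.6% lower and a median of -0.00 over all 16338 genes. No member passed an adjusted p of 0.05 with edgeR, where 0.00612% of all genes did, and the smallest adjusted p among members was 0.986. DESeq2 and limma-voom also called 0 members. At an unadjusted p below 0.05, edgeR gave 7 of 32 members, against 4.82% of all genes. DESeq2 gave 8 members, with 939 of all 16338 genes, and limma-voom gave 7 members, with 1185 of all genes. The 7 with edgeR were Nsf, Syp, Snap25, Dnm1, Unc13a and Syngr1, all lower in homozygotes, and Sncg, which was higher. Without the 2 libraries that stood apart, 24 of 32 were lower, the median was -0.11, and 6 members had an unadjusted p below 0.05, all lower, against 5.36% of all genes. All 4 homozygote libraries lay below all 4 wild type libraries for Nsf, Napb and Syp, 3 of 32 (9.38%), against 2.12% of all genes. No member lay wholly above, against 1.29% of all genes. The count of 7 was 2 without wild type replicate 3, wild type replicate 4 or homozygote replicate 1, and 4 without wild type replicate 2 or homozygote replicate 3. Over all genes the counts were 653, 649, 639, 728 and 776 in the same order, against 787 with all 12 libraries. The median was -0.08 without wild type replicate 1.

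Heterozygotes were compared with the same wild type libraries, so the 2 comparisons are not independent. Of the 32 genes, 23 were lower in heterozygotes, with a median of -0.09, against 50.3% and -0.00 over all genes. No member passed with edgeR, DESeq2 or limma-voom, 0% of all genes passed with edgeR, and the smallest adjusted p of a member was 0.999 with edgeR. At an unadjusted p below 0.05 edgeR gave 3 members (Nsf and Snap25 lower, Sncg higher), against 4.1% of all genes. DESeq2 gave 4 members, with 796 of all 16338 genes, and limma-voom gave 4 members, with 1066 of all genes. Without the 2 libraries that stood apart, 22 were lower, the median was -0.07 and 2 had an unadjusted p below 0.05, against 5.23% of all genes. Nsf and Syp lay below every wild type library in all 4 heterozygotes (6.25% of members, against 1.76% of all genes), and no member lay wholly above, against 1.48%. The count of 3 was 1 without wild type replicate 3, wild type replicate 4, heterozygote replicate 1 or heterozygote replicate 3, and 5 without homozygote replicate 1. Over all genes the counts were 561, 567, 695, 695 and 854 in the same order, against 670 with all 12 libraries. The median was -0.06 without wild type replicate 1.

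Between homozygotes and heterozygotes, no release gene differed beyond the spread of the libraries. In this contrast 21 of 32 members were lower in homozygotes, with a median of -0.05. No member and 0% of all genes passed with edgeR, and DESeq2 and limma-voom called 0 members. None of the 32 had an unadjusted p below 0.05 with edgeR, where 2.97% of all genes did. None had with DESeq2, where 578 of all 16338 genes did, or with limma-voom, where 695 did. The 6 smallest p-values belonged to Amph (-0.14, SE 0.09), Syp (-0.07, SE 0.05), Syn2 (0.13, SE 0.12), Sv2b (-0.26, SE 0.23), Bsn (-0.25, SE 0.25) and Syn1 (0.14, SE 0.15), as log2 differences, homozygotes minus heterozygotes. Unadjusted p in edgeR ran from 0.158 for Amph to 0.353 for Syn1. Sv2b turned to 0.02 without heterozygote replicate 1 and was at -0.17 without both libraries that stood apart. The median over members was -0.01 without homozygote replicate 1 and -0.02 without heterozygote replicate 2. A test of any difference among the 3 genotypes called no member and 0% of all genes with edgeR. DESeq2 and limma-voom called 0 members as well. At an unadjusted p below 0.05 it gave Nsf (0.00759), Syp (0.0179) and Snap25 (0.0449) with edgeR, 3 of 32 members, against 3.59% of all genes.

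**Figure D2:**
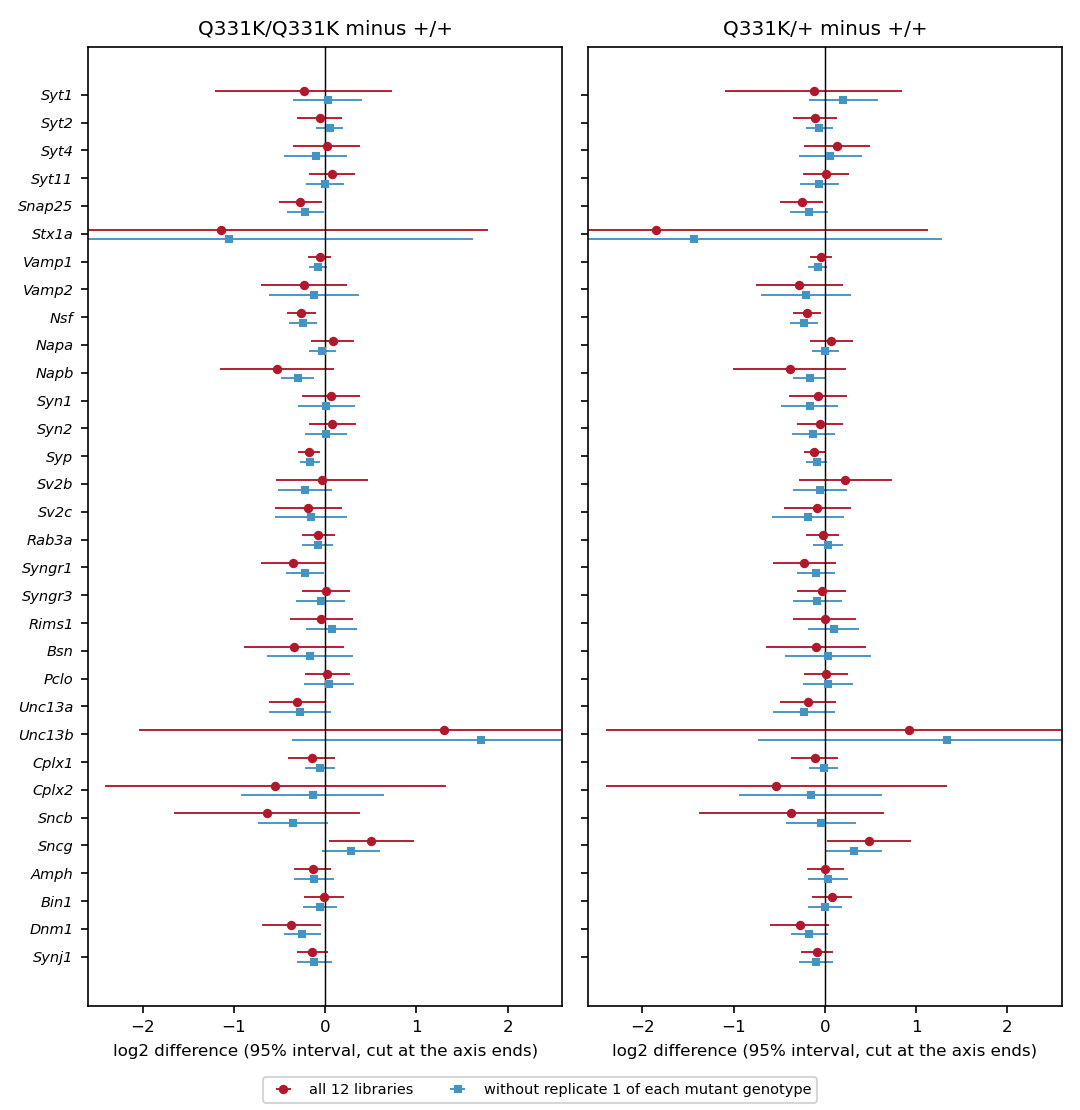
Log2 difference from wild type for each of the 32 genes, homozygotes at left and heterozygotes at right, with 95% intervals from edgeR, using all 12 libraries (circles) and without replicate 1 of each mutant genotype (squares). Most circles lie just left of 0, Sncg lies to the right in both panels, and the intervals of Stx1a and Unc13b run past the axis.

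The SNARE proteins form the bundle that pulls vesicle and membrane together. All 4 measured members averaged lower in both mutant genotypes, with a median of -0.25 in homozygotes and -0.27 in heterozygotes. With the 2 libraries left out the medians were -0.17 in homozygotes and -0.19 in heterozygotes. Snap25, at chr2:136713453-136782428 on GRCm38, had 6403, 7964, 7100.2 and 7345 CPM in homozygote replicates 1 to 4, 6169, 8103, 7022 and 7946 CPM in heterozygote replicates 1 to 4, and 7031, 9294, 9058 and 9449 CPM in wild type replicates 1 to 4. Wild type replicates 2 to 4 were above every mutant library, while wild type replicate 1 lay among the mutant ones, so the groups overlapped. The log2 difference was -0.27 in homozygotes (95% interval -0.51 to -0.04, unadjusted p = 0.0261, adjusted p = 0.986, edgeR). In heterozygotes it was -0.25 (-0.49 to -0.02, unadjusted p = 0.0375, adjusted p = 0.999, edgeR). With the 2 libraries left out, Snap25 differed by -0.22 (-0.42 to -0.01) in homozygotes and -0.18 (-0.38 to 0.03) in heterozygotes.

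Vamp1 had 1869.8, 1779, 1795 and 1763 CPM in homozygote replicates 1 to 4, 1974, 1732, 1834 and 1752 CPM in heterozygote replicates 1 to 4, and 1905, 1869, 1795 and 1947 CPM in wild type replicates 1 to 4. Its genotypes overlapped, with a log2 difference of -0.06 (SE 0.06) in homozygotes and -0.04 (SE 0.06) in heterozygotes, or -0.08 in heterozygotes without the 2 libraries. Vamp2 had 60.8, 93.02, 75.00 and 88.8 CPM in homozygote replicates 1 to 4, 66.2, 79.1, 96.3 and 66.1 CPM in heterozygote replicates 1 to 4, and 128, 58.7, 101 and 85.8 CPM in wild type replicates 1 to 4. Wild type replicate 1 was the highest of the 12 and wild type replicate 2 the lowest, so wild type spanned both mutant groups. Its log2 difference was -0.23 (SE 0.22) in homozygotes and -0.28 (SE 0.22, unadjusted p = 0.223, edgeR) in heterozygotes. With the 2 libraries left out it was -0.12 in homozygotes and -0.21 in heterozygotes. Stx1a averaged 0.948 ± 0.727 CPM in homozygotes, 0.579 ± 0.486 CPM in heterozygotes and 2.09 ± 1.90 CPM in wild type (SD, n = 4 each), with 0 counts in homozygote replicate 3 and heterozygote replicate 1. Its log2 difference was -1.14 (-4.06 to 1.78) in homozygotes and -1.85 (-4.83 to 1.13) in heterozygotes, or -1.06 in homozygotes and -1.43 in heterozygotes without the 2 libraries, and wild type replicate 1, at 4.88 CPM, was the highest library.

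NSF and its adaptors reset SNARE complexes after fusion. Nsf, the ATPase itself, at chr11:103821782-103954056 on the minus strand, had the smallest p among the 32 members in both mutant comparisons. It had 1091, 1249, 1009.6 and 1135 CPM in homozygote replicates 1 to 4, 1254, 1125, 1202 and 1102 CPM in heterozygote replicates 1 to 4, and 1346, 1375, 1307 and 1348 CPM in wild type replicates 1 to 4. Every mutant library lay below every wild type library, and the wild type libraries ran from 1307 to 1375 CPM. Homozygotes differed from wild type by -0.26 (-0.42 to -0.11, unadjusted p = 0.00309, adjusted p = 0.986, edgeR). Heterozygotes differed by -0.20 (-0.35 to -0.04, unadjusted p = 0.0159, adjusted p = 0.999, edgeR). Both mutant libraries that stood apart were within the range of the other 10, and without them the values were -0.25 in homozygotes and -0.23 in heterozygotes.

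Napb, beta-SNAP, at chr2:148693985-148732467 on the minus strand, had 182, 417, 423 and 465 CPM in homozygote replicates 1 to 4, 216, 487, 439 and 504 CPM in heterozygote replicates 1 to 4, and 495, 502, 583 and 565 CPM in wild type replicates 1 to 4. Homozygote replicate 1 and heterozygote replicate 1 had less than any other library, the other homozygotes were also below all wild type libraries, and heterozygote replicate 4 was within the wild type range. The log2 difference was -0.53 (-1.15 to 0.09, unadjusted p = 0.0877, edgeR) in homozygotes and -0.38 (-1.003 to 0.24, unadjusted p = 0.203, edgeR) in heterozygotes. Without the 2 libraries it was -0.30 (-0.48 to -0.12, unadjusted p = 0.00376, adjusted p = 0.873, edgeR) in homozygotes and -0.17 in heterozygotes. Napa, alpha-SNAP, had 1067, 839.7, 756 and 797 CPM in homozygote replicates 1 to 4, 978, 870.4, 806 and 781 CPM in heterozygote replicates 1 to 4, and 889.8, 807, 778 and 794 CPM in wild type replicates 1 to 4. The groups overlapped, the 2 libraries that stood apart were the highest of the 12, and the log2 difference was 0.08 (SE 0.11) in homozygotes and 0.07 (SE 0.11) in heterozygotes. Napa turned to -0.03 in homozygotes and was at 0.00694 in heterozygotes without the 2 libraries.

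**Figure D3:**
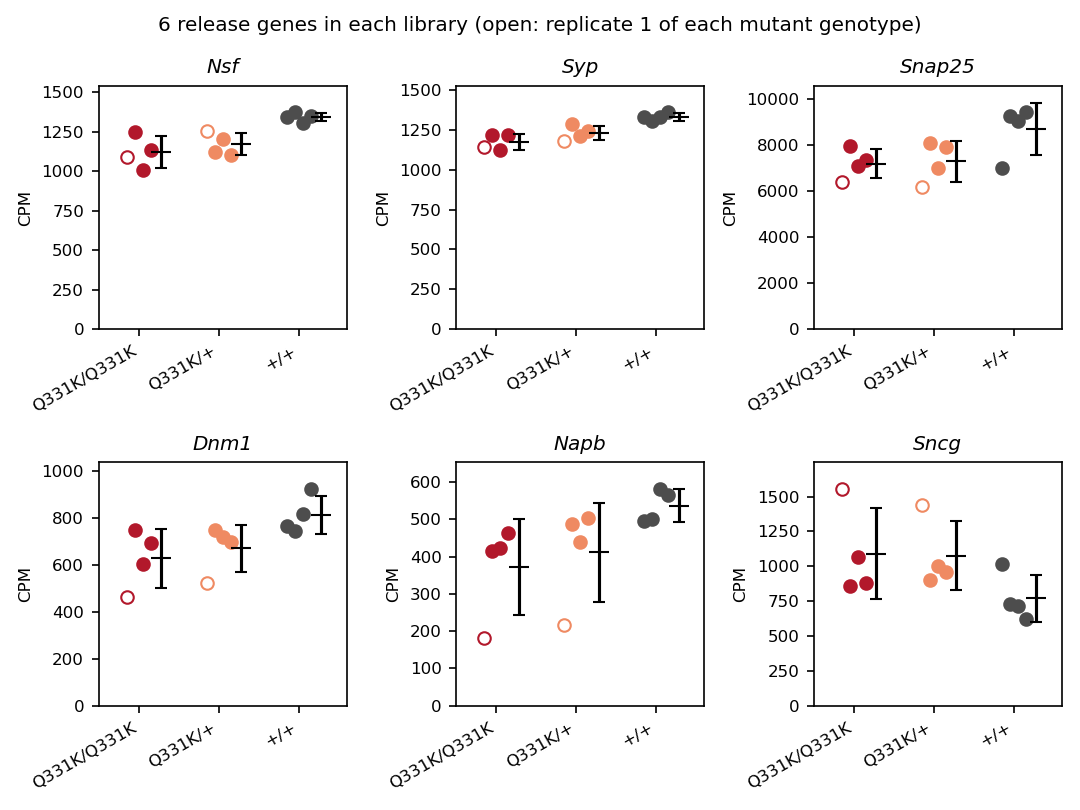
CPM of Nsf, Syp, Snap25, Dnm1, Napb and Sncg in each library by genotype, with the mean and SD beside the points and replicate 1 of each mutant genotype drawn open. Nsf and Syp are below wild type in all 8 mutant libraries, while the open points of Napb, Dnm1 and Sncg stand away from the filled ones.

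Of the 8 vesicle proteins, 5 averaged lower in homozygotes and 7 in heterozygotes, with medians of -0.05 in homozygotes and -0.06 in heterozygotes. Leaving out the 2 libraries gave -0.12 in homozygotes and -0.10 in heterozygotes. Syp, synaptophysin, a major membrane protein of the vesicle, at chrX:7638471-7653256, had 1144, 1218, 1122 and 1221 CPM in homozygote replicates 1 to 4, 1181, 1287, 1214 and 1244 CPM in heterozygote replicates 1 to 4, and 1332, 1306, 1331 and 1363 CPM in wild type replicates 1 to 4. All 8 mutant libraries lay below all 4 wild type libraries. Homozygotes differed by -0.18 (-0.30 to -0.06, unadjusted p = 0.00590, adjusted p = 0.986, edgeR). Heterozygotes differed by -0.11 (-0.23 to 0.00, unadjusted p = 0.0563, edgeR). Leaving out the 2 libraries gave -0.16 in homozygotes and -0.09 in heterozygotes. The kits used keep no strand, and Gm14703 on the other strand overlaps Syp and held 33.4% as many counts. Reads from any stretch that both genes transcribe cannot be assigned to either. For this and the overlaps named below, whole gene spans were compared. Shared exons were not checked, so such a percentage does not measure ambiguous reads.

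Syngr1, synaptogyrin 1, another vesicle membrane protein, had 126, 182, 207 and 180.4 CPM in homozygote replicates 1 to 4, 141, 208, 197 and 215 CPM in heterozygote replicates 1 to 4, and 197, 223, 213 and 254 CPM in wild type replicates 1 to 4. The 2 libraries that stood apart were the lowest, and homozygote replicate 3 and heterozygote replicates 2 and 4 lay within the wild type range. Its log2 difference was -0.35 (-0.70 to -0.00, unadjusted p = 0.0483, edgeR) in homozygotes and -0.22 (-0.57 to 0.13, unadjusted p = 0.190, edgeR) in heterozygotes. The values were -0.22 in homozygotes and -0.10 in heterozygotes without the 2 libraries. Its relative Syngr3 averaged 257 ± 22.7 CPM in homozygotes, 249.9 ± 28.2 CPM in heterozygotes and 256 ± 43.9 CPM in wild type (SD, n = 4 each), and the groups overlapped. Rab3a, the GTPase that links vesicles to the active zone, averaged 1456 ± 26.6 CPM in homozygotes, 1508 ± 136 CPM in heterozygotes and 1533 ± 155 CPM in wild type, with overlap again.

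The synapsins tether vesicles to each other, and Syn1 averaged 282 ± 54.9 CPM in homozygotes, 256 ± 42.3 CPM in heterozygotes and 269 ± 19.8 CPM in wild type (SD, n = 4 each). Syn2 averaged 193 ± 24.5 CPM in homozygotes, 176 ± 20.96 CPM in heterozygotes and 183 ± 18.8 CPM in wild type. Neither set of genotypes was separated, and for Syn1 the overlapping entries Araf and Timp1 on the other strand held 98.4% as many counts as Syn1 itself. Among the SV2 glycoproteins of the vesicle, Sv2b averaged 258 ± 66.6 CPM in homozygotes, 308 ± 112 CPM in heterozygotes and 264 ± 45.7 CPM in wild type, and its 2 highest libraries were heterozygote replicate 1 at 472 CPM and homozygote replicate 1 at 353 CPM. Sv2c averaged 50.5 ± 5.56 CPM in homozygotes, 54.3 ± 10.9 CPM in heterozygotes and 57.5 ± 11.5 CPM in wild type, and the groups overlapped.

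The proteins here grouped as fusion regulators are complexins and synucleins, and 3 of the 4 averaged lower in each mutant genotype. The exception, Sncg, was the only member with a higher mean among the 12 smallest p-values of each comparison with wild type. Sncg, at chr14:34370274-34374789 on the minus strand, had 1558, 856, 1069 and 881 CPM in homozygote replicates 1 to 4, 1443, 902, 1005 and 959 CPM in heterozygote replicates 1 to 4, and 1014, 731, 712 and 623 CPM in wild type replicates 1 to 4. Wild type replicate 1 lay within the mutant range, and the other wild type libraries were below all mutant ones. Homozygotes differed by 0.50 (0.04 to 0.97, unadjusted p = 0.0363, adjusted p = 0.986, edgeR). Heterozygotes differed by 0.48 (0.02 to 0.95, unadjusted p = 0.0425, adjusted p = 0.999, edgeR). The 2 libraries that stood apart had the highest Sncg of all, and without them the difference was 0.28 (-0.03 to 0.60) in homozygotes and 0.31 (0.00 to 0.63) in heterozygotes.

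Sncb, beta-synuclein, had 45.4, 157, 155 and 159 CPM in homozygote replicates 1 to 4, 39.5, 204, 168 and 212 CPM in heterozygote replicates 1 to 4, and 132, 198, 239.6 and 233 CPM in wild type replicates 1 to 4. The 2 libraries that stood apart were far below all others, and the other mutant libraries lay within the wild type range. Its log2 difference was -0.64 (-1.66 to 0.39, unadjusted p = 0.201, edgeR) in homozygotes, and -0.35 (-0.73 to 0.03) without the 2 libraries. In heterozygotes it was -0.37 (-1.38 to 0.65) and -0.04 without them. Cplx1 had 1465, 1848, 1834 and 2009.8 CPM in homozygote replicates 1 to 4, 1468, 2000.1, 1832 and 2041 CPM in heterozygote replicates 1 to 4, and 1752, 1938, 2042 and 2193 CPM in wild type replicates 1 to 4. The genotypes overlapped, and the log2 difference was -0.15 (-0.40 to 0.11) in homozygotes and -0.11 (-0.37 to 0.15) in heterozygotes. Without the 2 libraries Cplx1 differed by -0.06 in homozygotes and -0.01 in heterozygotes. Cplx2 had 0.232, 11.4, 7.405 and 8.81 CPM in homozygote replicates 1 to 4, 0.803, 8.19, 11.01 and 8.12 CPM in heterozygote replicates 1 to 4, and 5.21, 7.10, 15.4 and 12.95 CPM in wild type replicates 1 to 4. Its lowest libraries were again replicate 1 of each mutant genotype, and the rest overlapped, with a log2 difference of -0.55 (-2.42 to 1.33) in homozygotes and -0.53 (-2.40 to 1.34) in heterozygotes. Without the 2 libraries Cplx2 differed by -0.14 (-0.92 to 0.64) in homozygotes and -0.16 (-0.94 to 0.63) in heterozygotes.

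The 4 synaptotagmins showed small differences, with medians of -0.02 in homozygotes and -0.05 in heterozygotes, and 2 of 4 lower in each. Leaving out the 2 libraries turned both medians, to 0.0116 in homozygotes and 3.21e-04 in heterozygotes. Syt2 had 335, 499, 479 and 449 CPM in homozygote replicates 1 to 4, 384, 469, 437 and 415 CPM in heterozygote replicates 1 to 4, and 438, 467, 474 and 461 CPM in wild type replicates 1 to 4. The groups overlapped, and heterozygotes differed from wild type by -0.11 (-0.35 to 0.13, unadjusted p = 0.348, edgeR), or by -0.06 without the 2 libraries. Syt1 had 10.2, 36.1, 28.8 and 25.05 CPM in homozygote replicates 1 to 4, 7.01, 33.1, 37.1 and 31.3 CPM in heterozygote replicates 1 to 4, and 36.3, 28.9, 28.98 and 23.9 CPM in wild type replicates 1 to 4. The 2 libraries that stood apart had the least Syt1, and without them the log2 difference was 0.03 in homozygotes and 0.20 in heterozygotes, compared with -0.24 in homozygotes and -0.12 in heterozygotes over all libraries. Syt4, a synaptotagmin of dense-core vesicles, averaged 330.9 ± 60.6 CPM in homozygotes, 360.05 ± 41.2 CPM in heterozygotes and 328 ± 76.3 CPM in wild type (SD, n = 4 each). Syt11, which does not bind calcium, averaged 1460.2 ± 168 CPM in homozygotes, 1401 ± 178 CPM in heterozygotes and 1386 ± 182 CPM in wild type. For both, the genotypes overlapped.

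At the active zone, RIM, Bassoon and Piccolo form the scaffold and Munc13 proteins prime vesicles for fusion. Of these 5 members, 3 averaged lower in each mutant genotype, with medians of -0.04 in homozygotes and -0.00 in heterozygotes. These medians turned to 0.04 in homozygotes and 0.04 in heterozygotes without the 2 libraries. Unc13a, at chr8:71624417-71671757 on the minus strand, had 38.4, 45.1, 44.3 and 35.8 CPM in homozygote replicates 1 to 4, 48.9, 49.2, 40.1 and 39.98 CPM in heterozygote replicates 1 to 4, and 50.4, 39.2, 56.6 and 56.2 CPM in wild type replicates 1 to 4. The highest 3 libraries were wild type, but wild type replicate 2 lay among the mutant libraries. Homozygotes differed by -0.31 (-0.61 to -0.00, unadjusted p = 0.0482, adjusted p = 0.986, edgeR). Heterozygotes differed by -0.18 (-0.49 to 0.12, unadjusted p = 0.214, edgeR). Leaving out the 2 libraries gave -0.28 in homozygotes and -0.23 in heterozygotes. Glt25d1 on the other strand held 63.8% as many counts as Unc13a.

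Bsn, which encodes Bassoon, averaged 29.9 ± 9.65 CPM in homozygotes, 35.4 ± 9.84 CPM in heterozygotes and 37.8 ± 7.90 CPM in wild type (SD, n = 4 each). The lowest libraries were homozygote replicate 1 at 18.9 CPM and heterozygote replicate 1 at 25.6 CPM, and the log2 difference in homozygotes was -0.34 (-0.89 to 0.21), or -0.17 without both. Rims1 averaged 66.7 ± 13.5 CPM in homozygotes, 68.7 ± 13.04 CPM in heterozygotes and 68.7 ± 5.36 CPM in wild type, and Pclo, which encodes Piccolo, averaged 109 ± 16.7 CPM in homozygotes, 109 ± 8.76 CPM in heterozygotes and 108 ± 6.98 CPM in wild type. Unc13b had 0, 1.47, 3.19 and 1.32 CPM in homozygote replicates 1 to 4, 0, 1.79, 1.20 and 1.60 CPM in heterozygote replicates 1 to 4, and 1.80, 0.0480, 0.327 and 0.2496 CPM in wild type replicates 1 to 4. It had no count in replicate 1 of either mutant genotype, the groups overlapped, and its log2 difference of 1.30 in homozygotes had an interval of -2.05 to 4.64.

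All 4 genes of vesicle retrieval averaged lower in homozygotes (median -0.14, and -0.12 without the 2 libraries), and 2 of 4 in heterozygotes (median -0.04, and -0.05 without the 2 libraries). Dnm1, dynamin 1, the GTPase that cuts endocytic vesicles free, had 462, 748, 603 and 694 CPM in homozygote replicates 1 to 4, 523, 746, 717 and 697 CPM in heterozygote replicates 1 to 4, and 766, 742, 816 and 924 CPM in wild type replicates 1 to 4. Homozygote replicate 2 and heterozygote replicate 2 lay just above the lowest wild type library, and all other mutant libraries were below wild type. Homozygotes differed by -0.37 (-0.70 to -0.05, unadjusted p = 0.0269, adjusted p = 0.986, edgeR). Without the 2 libraries the difference was -0.25 (-0.45 to -0.05). Heterozygotes differed by -0.28 (-0.60 to 0.05, unadjusted p = 0.0877, edgeR), or by -0.17 without the 2 libraries.

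Synj1, the lipid phosphatase that uncoats vesicles, had 162, 153, 184 and 179 CPM in homozygote replicates 1 to 4, 179.9, 170.3, 179 and 175 CPM in heterozygote replicates 1 to 4, and 192, 199.7, 173 and 183 CPM in wild type replicates 1 to 4. The groups overlapped, with a log2 difference of -0.14 (-0.32 to 0.03, unadjusted p = 0.104, edgeR) in homozygotes and -0.09 (-0.26 to 0.09, unadjusted p = 0.297, edgeR) in heterozygotes. Leaving out the 2 libraries gave -0.12 in homozygotes and -0.09 in heterozygotes. Amph, amphiphysin, which recruits dynamin, averaged 125 ± 11.3 CPM in homozygotes, 138 ± 12.9 CPM in heterozygotes and 137 ± 8.69 CPM in wild type (SD, n = 4 each). Its log2 difference was -0.14 (-0.34 to 0.07, unadjusted p = 0.172, edgeR) between homozygotes and wild type, or -0.12 without the 2 libraries. Bin1, amphiphysin 2, averaged 309.6 ± 35.3 CPM in homozygotes, 329.8 ± 38.3 CPM in heterozygotes and 313 ± 2.80 CPM in wild type and overlapped between genotypes.

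Release genes were unevenly represented in the 2 libraries that stood apart. In both, 12 of 32 members (37.5%) lay below all other libraries, against 10.6% of all genes, and 5 (15.6%) lay above, against 10.3%. The 12 were Syt1, Syt2, Snap25, Napb, Rims1, Bsn, Unc13b, Cplx1, Cplx2, Sncb, Dnm1 and Syngr1, and the 5 were Napa, Syn2, Sv2b, Sncg and Bin1. Some margins were small. Unc13b was at 0 CPM in both, where the lowest of the other 10 had 0.0480 CPM. In heterozygote replicate 1, Bsn had 25.6 CPM against a lowest other value of 25.9 CPM. Syn2 there had 202.9 CPM against a highest other value of 201.7 CPM. Cplx2 had 0.232 CPM in homozygote replicate 1 and 0.803 CPM in heterozygote replicate 1, against 5.21 to 15.4 CPM in the other 10. Syt1 had 10.2 CPM in homozygote replicate 1 and 7.01 CPM in heterozygote replicate 1, against 23.9 to 37.1 CPM. Sncb had 45.4 CPM in homozygote replicate 1 and 39.5 CPM in heterozygote replicate 1, against 132 to 239.6 CPM. Nsf, Syp and Unc13a were within the range of the other 10 in both libraries. The inhibitory and excitatory interneuron marker sums were lowest, and the motor neuron sum highest, in these same 2 libraries.

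**Figure D4:**
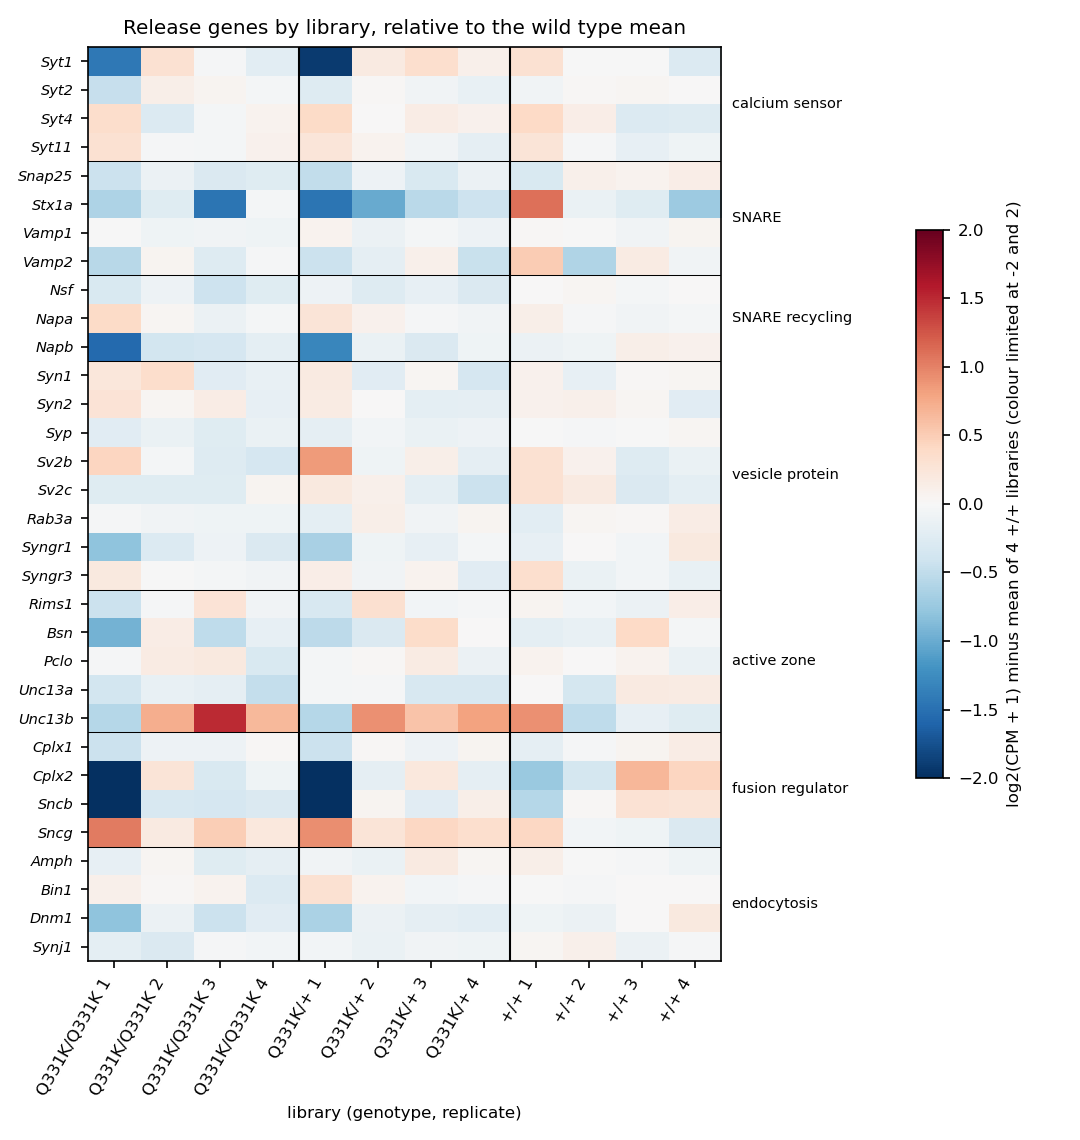
Heat map of the 32 genes (rows, by role) in the 12 libraries (columns, by genotype), coloured by log2(CPM + 1) minus the mean of the 4 wild type libraries, with colours limited at -2 and 2. Replicate 1 of each mutant genotype shows deep blue for Cplx2, Sncb, Syt1 and Napb, and the Nsf and Syp rows are pale blue across all 8 mutant libraries.

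The balance between paralogues asks whether the RNA of a library shifts from 1 family member to another. A library can mix cell types, so such a ratio does not show a shift within a cell. Ratios are log2 of CPM + 1 of the first gene over the second, and 8 pairs were compared. Each was set against wild type by an exact permutation test, two-sided, of 4 and 4 libraries, which cannot give a p below 0.0286. Adjusted over 8 pairs, a single pair cannot go below 0.229, and no pair passed. The Napa/Napb ratio averaged 1.29 ± 0.84 in homozygotes and 0.61 ± 0.19 in wild type (SD, n = 4 each; exact p = 0.0857, adjusted p = 0.381). The difference of 0.68 was 0.27 without homozygote replicate 1. In heterozygotes it was 0.52 (exact p = 0.171) and 0.17 without heterozygote replicate 1.

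The Sncb/Sncg ratio averaged -3.19 ± 1.27 in homozygotes and -1.95 ± 0.68 in wild type (exact p = 0.114, adjusted p = 0.381). Its difference was -1.24 in homozygotes and -1.06 in heterozygotes. Without replicate 1 of the mutant genotype it was -0.61 in homozygotes and -0.35 in heterozygotes. For Unc13a/Unc13b the difference was -0.87 in homozygotes (exact p = 0.143) and -0.60 in heterozygotes (exact p = 0.371), on few Unc13b counts. With a pseudocount of 0.1 CPM in place of 1 these were -1.33 in homozygotes (exact p = 0.4) and -1.01 in heterozygotes (exact p = 0.429). Without replicate 1 of the mutant genotype, and with a pseudocount of 1 CPM, they were -1.22 in homozygotes and -0.98 in heterozygotes. The exact p was 0.0857 in each, where 3 against 4 libraries cannot go below 0.0286. The other 5 pairs had an exact p of 0.171 or more. Of these, Cplx1/Cplx2 differed by 0.65 in homozygotes and 0.55 in heterozygotes, or, with a pseudocount of 0.1 CPM, by 1.08 in homozygotes and 0.76 in heterozygotes. Leaving out replicate 1 of the mutant genotype gave -0.02 in homozygotes and 0.03 in heterozygotes. Syt1/Syt2 differed by -0.26 in homozygotes and -0.21 in heterozygotes. Leaving out replicate 1 of the mutant genotype gave -0.03 in homozygotes and 0.27 in heterozygotes.

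**Figure D5:**
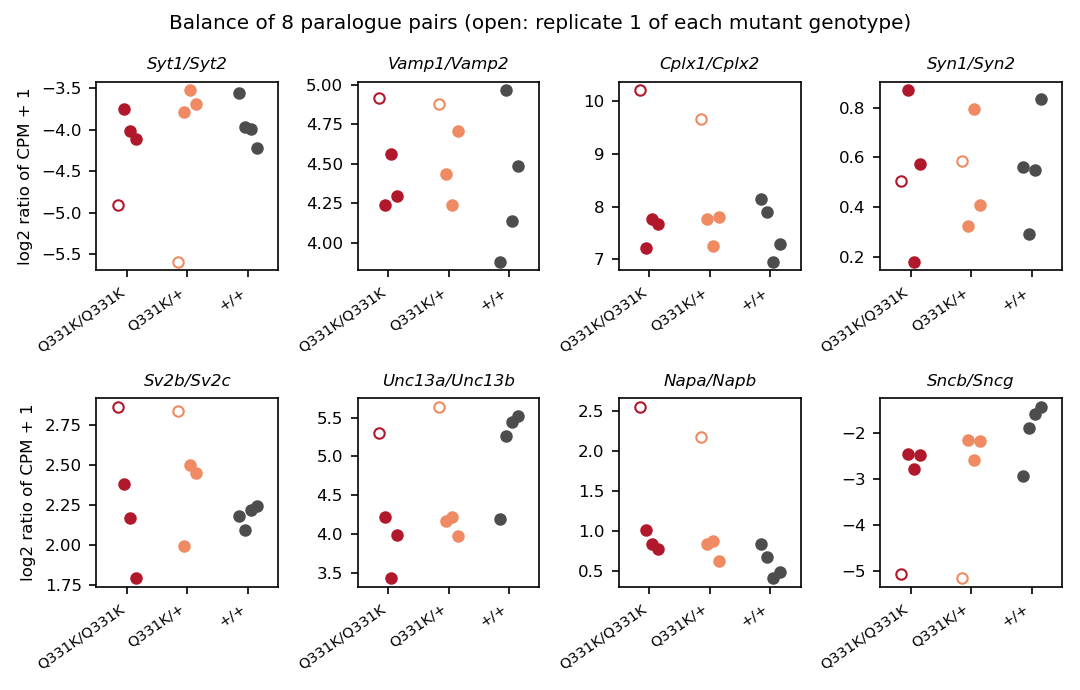
Log2 ratio of CPM + 1 for 8 paralogue pairs in each library by genotype, with replicate 1 of each mutant genotype drawn open and a separate axis range per panel. The open points lie beyond all filled ones for Syt1/Syt2, Cplx1/Cplx2, Sv2b/Sv2c, Napa/Napb and Sncb/Sncg. For Vamp1/Vamp2 and Unc13a/Unc13b they lie above the filled mutant points but not both above all wild type points. The filled points overlap between genotypes in most panels.

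Other genes of vesicle release, priming and recycling were taken from a list of 85, of which 84 were in the table and 79 were tested. None was called with edgeR in any comparison. In homozygotes 54 of 79 lay below wild type, at a median of -0.14 against -0.00 over all genes, and 8 had an unadjusted p below 0.05, all lower, against 4.82% of all genes. With the 2 libraries left out 53 were lower, the median was -0.08 and 11 had such a p, 10 of them lower, against 5.36%. In heterozygotes 58 of 79 were lower, with a median of -0.13 and 7 at an unadjusted p below 0.05, all lower, against 4.1% of all genes. Without replicate 1 of both mutant genotypes 63 were lower, the median was -0.11 and 6 had such a p, all lower, against 5.23%.

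The clathrin adaptor subunits Ap2a1 (-0.24) and Ap2m1 (-0.21) had lower means in homozygotes than in wild type, as log2 differences, and so did the SNARE relative Snap47 (-0.27). Fuz on the other strand held 21.7% as many counts as Ap2a1. Ap2m1 ran from 640 to 710.5 CPM in homozygotes and from 750.1 to 850.1 CPM in wild type, without overlap. In heterozygotes small p-values belonged to Eps15, an endocytic adaptor, at -0.35, Madd, an exchange factor for Rab3, at -0.30, and Scamp5, a vesicle trafficking protein, at -0.18. None of these passed the adjusted threshold.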

How the data were processed

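Lumbar lower motor neuron RNA from 12 libraries, 4 for each genotype, was profiled. Per the labels' protocols, RNA came from laser-captured cells, was copied with a template-switching low-input kit and was made into libraries by tagmentation. Per the submitters' processing notes, reads were handled with Trim Galore 0.4.3 and HISAT2 2.0.5 on GRCm38. The authors deposited raw counts for each gene. The counting program, annotation and strand setting are not given in the sources used here. Kits of this kind add no molecular identifiers, so reads are not independent molecules. Positions are the file's own, exon lengths are unions of exons in GENCODE M21, and 21 of 32 members have the same start and end there.

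Genes were kept with filterByExpr (16338 of 20011 entries with a count), scaled by TMM and tested with the quasi-likelihood method of edgeR 4.0.16 in R 4.3.3, over all 12 libraries, two-sided, with Benjamini-Hochberg adjustment over all genes and a threshold of 0.05. Log2 differences, their SE and 95% intervals are from this model, and its common biological coefficient of variation was 0.569. Alternatives were DESeq2 1.42.0, limma 3.58.1 voom with quality weights, DESeq2 size factors, no filter, the replicate number as a block, only the 8 libraries compared, leaving out each library, and leaving out both replicate 1 mutant libraries. For paralogue ratios a pseudocount of 0.1 CPM and a block were also tried. Named genes are the 12 smallest p-values among members against wild type, 6 between mutants and 4 of the wider list. The members and lists were chosen with earlier results of these data known. Libraries of a genotype differed beyond counting error (chi-square per degree of freedom at least 62.8 over 18 pairs). Same-numbered libraries did not deviate together in every pair, so numbers were not taken as pairs. The fit was also run on simulated counts. These held larger differences than the members and a spread below the common value given above, so that run does not show what the fit can detect here. Slc18a3 among markers and Vamp7 in the wider list were not found under those symbols. Some genes of these lists are not reported here by name.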

Additional observations from a re-analysis of the deposited data

Results flagged for a closer look

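In 6 of 96 groups of 4 libraries (32 genes in 3 genotypes), 1 library lay far from the other 3 by Dixon's criterion, which chance alone meets in about 1 of 20 groups. Homozygote replicate 1 was the low library for Napb, at 182 CPM against 416.5 to 465 CPM in the other homozygotes, and for Sncb, at 45.4 CPM against 155 to 159 CPM. This is 1 of the 2 libraries with low interneuron markers, and the part of that in these values was not tested. Wild type replicate 1 was low for Snap25, at 7031 CPM against 9058 to 9449 CPM, and high for Syngr3, at 321 CPM against 229 to 242 CPM, and for Unc13b, at 1.80 CPM against 0.0480 to 0.327 CPM. Homozygote replicate 4 was high for Sv2c, at 58.8 CPM against 47.5 to 48.0 CPM.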

How the results depend on the processing

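In every alternative run, 0 members passed with an adjusted p below 0.05 in any comparison, and the difference from wild type of each of the 12 members with the smallest p-values in each comparison kept its direction. Other members turned, as Syt1 and Napa did without both replicate 1 mutant libraries. Over all genes, edgeR called 1 between homozygotes and wild type and 0 when any library was left out or no filter was used, also without both replicate 1 mutant libraries or with only the 8 libraries compared. DESeq2 called 13 there, 9 between heterozygotes and wild type, 3 between homozygotes and heterozygotes and 5 for any genotype difference. With replicate block, members at an unadjusted p below 0.05 numbered 9 between homozygotes and wild type, 9 between heterozygotes and wild type, 0 between homozygotes and heterozygotes and 9 for any difference, while the counts over all 16338 genes were 1431, 1157, 606 and 1086 in the same order, against 787, 670, 486 and 586 without the block, and the smallest adjusted p of a member was 0.0802; same-numbered libraries correlated at 0.454 for replicate 1 of the mutant genotypes and mostly below 0.1 elsewhere, and not every library correlated best with its own number. For any difference DESeq2 and limma-voom each gave 5 members at an unadjusted p below 0.05, against 3 with edgeR. Over all genes the counts were 767 with DESeq2, 1053 with limma-voom and 586 with edgeR. Leaving out 1 library gave 2 to 7 such members for homozygotes and wild type, 1 to 5 for heterozygotes and wild type and 1 to 5 for any difference. Over all genes these counts ran from 639 to 1104, 561 to 934 and 444 to 800 in the same order. Without both replicate 1 mutant libraries, homozygotes minus wild type turned to -0.00302 for Vamp1/Vamp2, -0.0190 for Cplx1/Cplx2 and -0.0692 for Sv2b/Sv2c, and heterozygotes minus wild type to 0.27 for Syt1/Syt2. Leaving out 1 library gave -0.0278 to 0.33 for Vamp1/Vamp2, -0.0190 to 0.98 for Cplx1/Cplx2, -0.14 to 0.0913 for Syn1/Syn2 and -0.0692 to 0.29 for Sv2b/Sv2c in homozygotes, and -0.42 to 0.27 for Syt1/Syt2 and -0.12 to 0.0595 for Syn1/Syn2 in heterozygotes. For Sv2b, homozygotes minus heterozygotes, the range was -0.44 to 0.0249. A pseudocount of 0.1 CPM turned no paralogue ratio, and moved only Cplx1/Cplx2 in homozygotes and Unc13a/Unc13b in both mutant genotypes by over 1.5 times. A replicate block leaves the difference of each paralogue ratio unchanged by construction and alters only its p-value. The cause was not tested. Stx1a and Unc13b are at 0 in 2 libraries each, and the part of depth in this was not tested.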
